A study of Mus musculus with 15 samples.

Results

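The 10 genes described here are a fibroblast growth factor (FGF) ligand of the liver, its co-receptor, the FGF receptors, and feedback inhibitors of the RAS-ERK pathway that these receptors start. They were chosen by gene name, as the non-control probes annotated to Fgf21, Klb, Fgfr1, Fgfr2, Fgfr3, Fgfr4, Spry1, Spry2, Spry4 or Dusp6. The rule itself uses gene names only, but the genes were put together with earlier results of these data known. They take 15 of the 55681 probes of the array and are 10 of its 24336 genes with a symbol. Total RNA of whole liver tumors was hybridised to 1-colour Agilent arrays, 1 array per tumor and 15 in all. There were 5 tumors in each group. p53f/f mice gave hepatocellular carcinomas (HCC), and p53LKO mice gave HCC and intrahepatic cholangiocarcinomas (ICC). p53LKO mice lack Trp53 in the liver, and p53f/f mice carry the floxed Trp53 gene without that deletion. The study addressed iron metabolism in liver cancer, and the arrays compare the tumors with and without p53 and the tumor types.

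All mice had a C57/BL6J background and received CCl4, a toxin that injures hepatocytes. It was injected at 0.5 µl per g body weight from the age of 6 weeks for 16 weeks, every 3 days by the sample labels and 2 times a week by the methods. The study's legends name male mice for the tumors compared by genotype. The age at which the hybridised tumors were taken is not named, and neither is the driver of the recombinase that deletes Trp53. The study reports that tumors formed later in p53f/f than in p53LKO mice. The HCC groups may therefore differ in age, which cannot be told apart from genotype here. The p53f/f HCC came from mice 3681, 3715, 3716 and 3717, the last of which gave 2 tumors. The p53LKO HCC came from mice 3976, 5283, 3731, 3733 and 3975, and the ICC from mice 3731, 3733, 3976, 3977 and 5283, so that 4 mice gave both tumor types. Values are listed in this order of mice below. Separate tumors of 1 mouse are not separate animals, so that p-values measure the spread between tumors.

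A level is a probe's log2 processed signal relative to the 75th percentile on the same array, so that 0 is the brightness below which 75% of the probes of that array lie. Levels compare 1 probe between arrays and not 1 gene with another. On each array, 37.0% to 70.1% of the probes were well above background. The arrays lay on 2 slides with 2 rows each. Upper rows held every p53f/f HCC and lower rows every ICC. Of the p53LKO HCC, those of mice 3976 and 5283 were in a lower row. Their arrays had 46.4% and 37.0% of probes well above background, and the 3 arrays in an upper row 61.0% to 62.1%. These 3 lay on slide 2, whose ICC were in its lower row, so that tumor type and row coincide there among p53LKO tumors. On slide 1 genotype and row coincide among the HCC. The Trp53 probe, which the annotation places at chr17:54560025-54560084 of mm9 and not at the Trp53 gene, lay at -1.27 to -0.68 in p53f/f HCC, at -3.86 to -2.75 in p53LKO HCC and at -4.19 to -2.31 in ICC. The 7 hepatocyte markers were well above background on all 15 arrays, with a mean level of 6.25 to 7.17 in p53f/f HCC, 6.03 to 6.59 in p53LKO HCC and 2.96 to 5.67 in ICC. The mean level of 7 biliary markers was 1.16 to 1.46 in ICC and at most 0.26 in HCC.

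FGF receptors are tyrosine kinases at the cell surface. FGF21 and intestinal FGF15 act as hormones and need beta-klotho, the product of Klb, beside the receptor, and the FGF15 signal through FGFR4 lowers bile acid synthesis in hepatocytes. Paracrine FGFs bind receptor and heparan sulfate instead. An active receptor recruits adaptors and turns on RAS, RAF, MEK and ERK, and ERK activity induces sprouty proteins and the phosphatase DUSP6, which damp the pathway.

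For 8 of the 10 genes the RefSeq promoter table holds an entry. Fgfr1 and Spry4 have none there. The 250 bases before the start are given for the ligand Fgf21, for Klb and Fgfr3, which were lower in ICC, and for Spry2, which was lower in p53LKO HCC. The build is GRCm38.p6 and each sequence is written 5′ to 3′ on the strand of its gene. Capitals mark matches on either strand to an ETS core (CCGGAA), a C/EBP-ATF element (TGATGNAAT), an E-box (CACGTG), an Sp1 box (GGGCGG) or a TATA box (TATAAA).
Fgf21, chr7:45615491-45615740, minus strand: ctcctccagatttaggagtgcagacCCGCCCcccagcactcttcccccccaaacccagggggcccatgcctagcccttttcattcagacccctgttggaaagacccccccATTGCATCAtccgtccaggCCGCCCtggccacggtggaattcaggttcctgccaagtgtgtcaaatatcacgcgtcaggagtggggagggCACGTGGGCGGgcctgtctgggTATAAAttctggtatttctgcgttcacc
Klb, chr5:65348161-65348410, plus strand: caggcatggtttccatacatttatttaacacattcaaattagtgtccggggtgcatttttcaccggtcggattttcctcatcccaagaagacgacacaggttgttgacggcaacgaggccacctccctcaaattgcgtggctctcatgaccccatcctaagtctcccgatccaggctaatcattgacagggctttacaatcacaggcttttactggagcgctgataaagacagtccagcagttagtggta
Fgfr3, the first of 2 starts, chr5:33721474-33721723, plus strand: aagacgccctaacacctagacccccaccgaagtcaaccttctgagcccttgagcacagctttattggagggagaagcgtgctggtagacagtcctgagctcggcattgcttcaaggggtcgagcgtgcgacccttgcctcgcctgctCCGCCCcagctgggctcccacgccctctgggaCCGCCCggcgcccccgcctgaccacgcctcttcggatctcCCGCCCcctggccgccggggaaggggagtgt
Spry2, chr14:105896820-105897069, minus strand: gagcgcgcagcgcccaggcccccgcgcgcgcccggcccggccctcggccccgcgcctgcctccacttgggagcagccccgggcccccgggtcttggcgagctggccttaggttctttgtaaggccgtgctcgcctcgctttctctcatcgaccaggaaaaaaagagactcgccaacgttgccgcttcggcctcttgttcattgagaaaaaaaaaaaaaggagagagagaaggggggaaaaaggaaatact
The Fgf21 stretch held the C/EBP-ATF element, in which ATF4 is known to act during amino acid and endoplasmic reticulum stress, from 140 to 132 bases before its start. The same letters occur in 0.816% of the 32851 stretches of this length. It also held an E-box, in 6.02% of all stretches, a TATA box, in 12.4%, and 3 Sp1 boxes, where 32.7% of all stretches hold at least 1. The last of the Sp1 boxes overlaps the E-box by 1 base. Fgfr3 held 3 Sp1 boxes. The ETS core, present in 12.03% of all stretches, matched only that of Fgfr4 among the 8 genes. Klb and Spry2 held none of these letters, with a GC content of 48% for Klb and 62.4% for Spry2.

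Between p53LKO HCC and p53f/f HCC, Spry2, a feedback inhibitor of receptor tyrosine kinase signalling, was the only one of the 10 genes past the thresholds, and it was lower. The groups did not overlap for this 1 gene of the 10, against 19.5% of all genes. The thresholds were a Benjamini-Hochberg adjusted p under 0.05 from limma and a fold change over 2, with each gene represented by its brightest probe. Thus 0 of 10 genes were higher and 1 lower, where 5.19% of all 17847 genes tested were higher and 10.8% lower. The other 9 had log2 fold changes of -1.18 to 0.66 and adjusted p of 0.0868 to 0.907. The median of the 10 was -0.12, against 0.06 over all genes.

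Between ICC and HCC of p53LKO mice, Fgfr1 was higher and Klb, Fgfr3 and Spry4 were lower. Of the 9 genes tested, 1 was higher and 3 lower, where 13.2% of all 16962 genes were higher and 15.2% lower. The groups did not overlap for 5 of the 9, against 30.8% of all genes. Spry2 was not tested there, since its probe was well above background on 2 of 5 HCC and 1 of 5 ICC arrays. The median of the 9 was -0.54, against -0.17 over all genes. Both comparisons use the same 5 p53LKO HCC arrays, so that their values are not independent of each other.

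**Figure D1:**
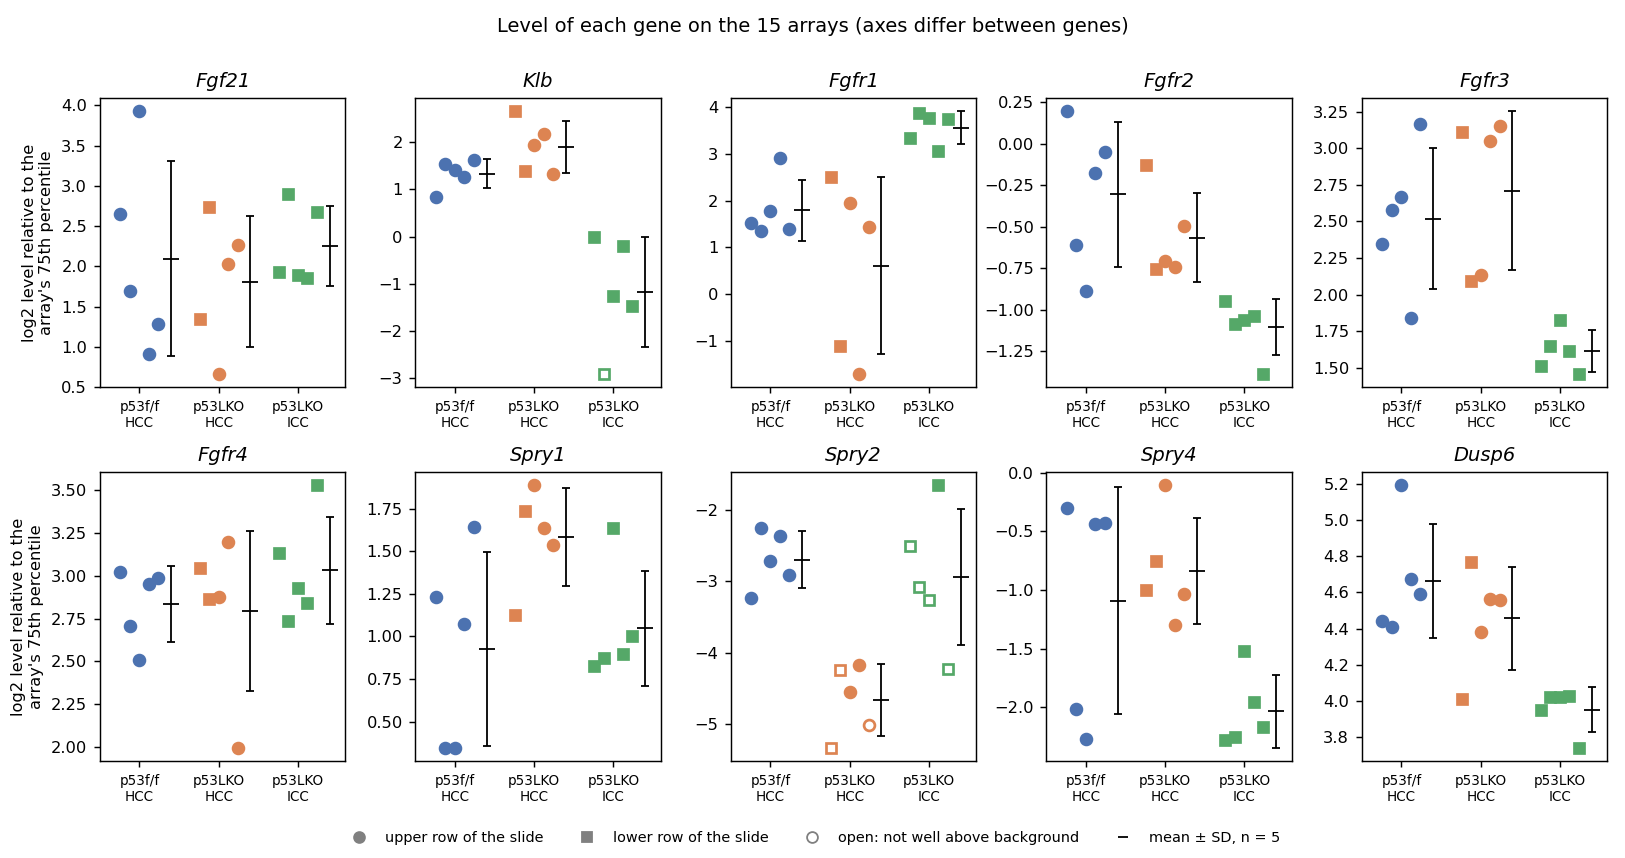
Level of each of the 10 genes on the 15 arrays, as log2 relative to the 75th percentile of the array (y axis, differing between genes) by group (x axis). Points are tumors, squares lie in a lower row of the slide, open points were not well above background, and bars are mean ± SD (n = 5). Klb, Fgfr3 and Spry4 of the ICC lie below those of every p53LKO HCC, and Fgfr1 of the ICC above.

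Fgf21 encodes a hormone that the liver releases in fasting and under cellular stress. Its probe lies at chr7:52869305-52869364 of mm9. Levels were 2.65, 1.70, 3.93, 0.91 and 1.28 in p53f/f HCC. They were 1.35, 2.73, 0.66, 2.04 and 2.27 in p53LKO HCC. In ICC they were 1.93, 2.89, 1.89, 1.86 and 2.68. The groups overlapped throughout, and the p53f/f HCC of mouse 3716 was the highest of all 15 tumors. The difference between the HCC groups was -0.28 with a standard error of 0.57 (limma, adjusted p = 0.731). ICC differed from p53LKO HCC by 0.44 with a standard error of 0.38 (limma, adjusted p = 0.373), on arrays where hepatocyte markers were lower.

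Klb encodes the co-receptor through which FGF21 and FGF15 bind, and its probe lies at chr5:65774926-65774985 of mm9. Its levels in p53f/f HCC were 0.84, 1.53, 1.40, 1.26 and 1.62. Those in p53LKO HCC were 2.65, 1.38, 1.95, 2.16 and 1.32, with 3 tumors above all p53f/f HCC. ICC had -0.02, -2.91, -1.26, -0.20 and -1.47, and the lowest of these, of mouse 3733, was not well above background. All ICC lay below all HCC. The mean was 1.33 ± 0.30 (SD, n = 5) for p53f/f HCC, 1.89 ± 0.56 (SD, n = 5) in p53LKO HCC and -1.17 ± 1.16 (SD, n = 5) in ICC. Klb was 8.37-fold lower in ICC than in p53LKO HCC, or -3.07 on the log2 scale (standard error 0.51, limma, adjusted p = 0.000959). Permuting the arrays between both groups, with 252 possible splits, gave a 2-sided exact p = 0.00794, which is the smallest value available. Within slide 2, where tumor type and row coincide, the value was -3.27. Within the lower row it was -3.19, and both were past the thresholds. Slide 1, which holds 1 ICC, gave -2.03 (limma, adjusted p = 0.152). p53LKO HCC differed from p53f/f HCC by 0.56 with a standard error of 0.27, not past the threshold (limma, adjusted p = 0.134), and with arrays scaled to the spike-in probes by 1.30, past both limits.

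Of the 7 hepatocyte markers 5 were lower in ICC, with a median log2 fold change of -1.73. Their mean level in ICC was highest in mice 3731 and 3977, at 5.67 and 5.61, where Klb was also highest. It was lowest in mouse 3733, at 2.96, where Klb was lowest. What part the hepatocyte content has in the difference of Klb was not tested. In whole tumor tissue, fewer cells of a type and less RNA per cell cannot be told apart.

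**Figure D2:**
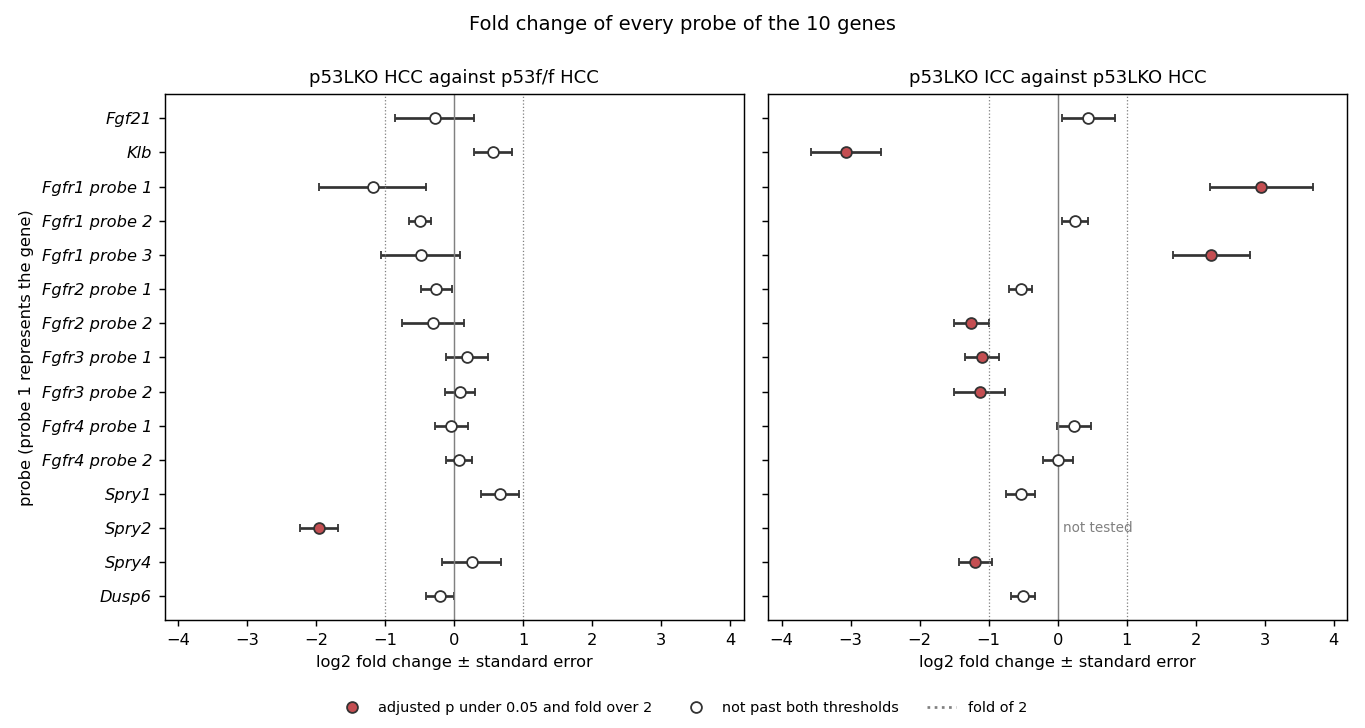
Log2 fold change ± standard error (x axis) of each of the 15 probes (y axis) for p53LKO HCC against p53f/f HCC and for ICC against HCC of p53LKO mice. Filled points were past an adjusted p of 0.05 and a fold of 2, which was so for Spry2 at -1.97 in the first and for 7 probes in the second.

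Fgfr1 encodes a receptor of many mesenchymal cells and has 3 probes on the array. The first and brightest lies at chr8:26685072-26685131 of mm9, the second at chr8:26685820-26685879 and the third at chr8:26684061-26684120. Whether they lie in different exons was not analysed here. On the first probe p53f/f HCC had 1.53, 1.35, 1.78, 2.91 and 1.39. p53LKO HCC had 2.51, -1.12, 1.95, -1.72 and 1.43. ICC had 3.34, 3.88, 3.78, 3.06 and 3.75. Among the p53LKO HCC, the tumors of mice 5283 and 3733 were far below the other 3, and all ICC lay above all HCC. Fgfr1 was 7.75-fold higher in ICC than in p53LKO HCC by this probe, or 2.95 on the log2 scale (standard error 0.75, limma, adjusted p = 0.00928). The exact permutation test gave p = 0.00794, the smallest it can give. Within slide 2, where tumor type and row coincide, the value was 3.06 (adjusted p = 0.0253 from limma). Within the lower row it was 2.87 (adjusted p = 0.0435 from limma). With the row as a block it was 2.87 (adjusted p = 0.0659 from limma) and on slide 1 alone 2.65 (adjusted p = 0.316 from limma), no longer past the threshold. The HCC groups differed by -1.18 with a standard error of 0.78 (limma, adjusted p = 0.264).

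The Fgfr1 probes did not give 1 answer. The third probe was 4.68-fold higher in ICC than in p53LKO HCC, or 2.23 on the log2 scale (standard error 0.56, limma, adjusted p = 0.00855). It lay at -4.58 to -1.17 in p53LKO HCC and at -0.99 to 0.46 in ICC. The second probe lay at 0.93 to 1.40 in p53LKO HCC and at 0.81 to 1.69 in ICC, and differed by 0.25 (standard error 0.19, limma, adjusted p = 0.313). All 3 probes were lowest among p53LKO HCC in mouse 3733 and next lowest in mouse 5283. Between the HCC groups the second probe had -0.50 (standard error 0.16, limma, adjusted p = 0.035), short of a fold of 2, although no p53LKO HCC reached the lowest p53f/f HCC. Which probe reports the Fgfr1 transcripts of these tumors was not tested.

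**Figure D3:**
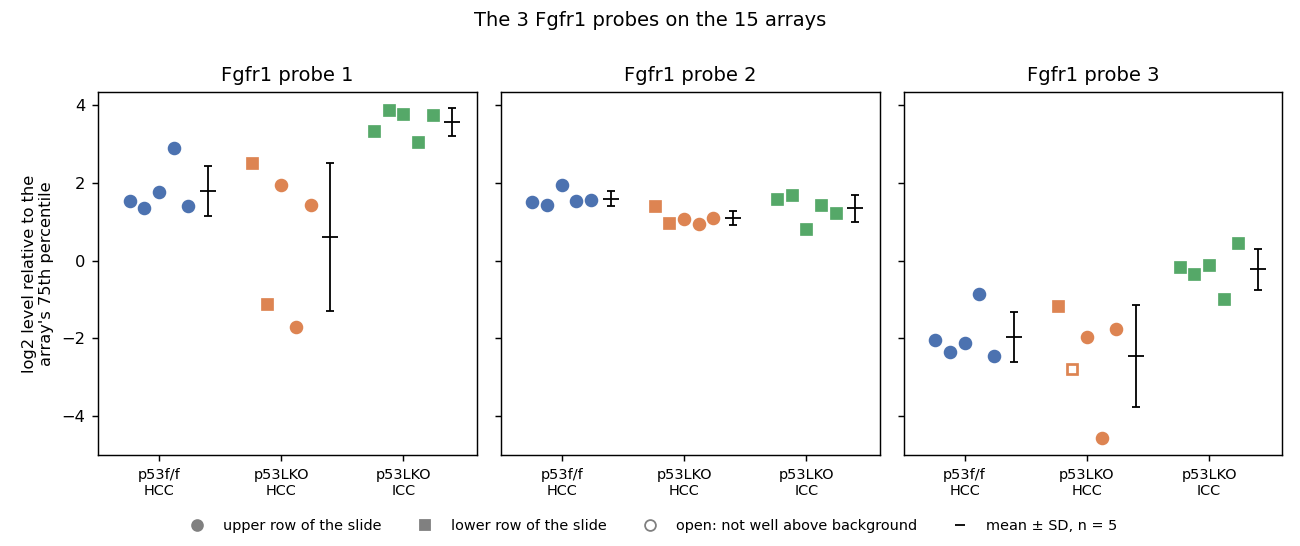
Level of the 3 Fgfr1 probes on the 15 arrays, as log2 relative to the 75th percentile of the array (y axis), by group (x axis), with the symbols of the plot of levels by gene and mean ± SD (n = 5). Probes 1 and 3 spread widely among the p53LKO HCC and are higher in every ICC than in any p53LKO HCC, while probe 2 lies between 0.81 and 1.93 on all arrays.

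Of 7 stellate cell and fibroblast markers, 4 were higher in ICC than in p53LKO HCC, with a median log2 fold change of 1.25. Their mean level was 0.18 to 1.80 in p53f/f HCC, 1.14 to 3.03 in p53LKO HCC and 2.72 to 3.66 in ICC. Among p53LKO HCC it was lowest in mouse 3733, at 1.14, where Fgfr1 was lowest. Mouse 5283, with the next lowest Fgfr1, had 1.57, the median of its group. Their part in the difference of Fgfr1 was not tested.

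Fgfr2 encodes a receptor that epithelial cells use, with probes at chr7:137307473-137307532 and chr7:137307455-137307514 of mm9, which overlap. The first had 0.19, -0.61, -0.89, -0.18 and -0.05 in p53f/f HCC. It had -0.13, -0.76, -0.71, -0.74 and -0.49 in p53LKO HCC, and -0.95, -1.08, -1.06, -1.04 and -1.39 in ICC. All ICC lay below all HCC. The difference between ICC and p53LKO HCC was -0.54 (standard error 0.17, limma, adjusted p = 0.0251), a fold of 1.45 and so short of the limit of 2. The second probe was well above background on 4 of 5 p53LKO HCC and on 0 of 5 ICC. It was at least 1.35-fold lower in ICC, a bound set against the level of the dimmest probes well above background (fitted log2 fold change -1.25, limma, adjusted p = 0.00305).

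Fgfr3 encodes a further receptor, and its brighter probe lies at chr5:34079649-34079708 of mm9. Levels were 2.35, 2.58, 2.67, 1.84 and 3.16 in p53f/f HCC. p53LKO HCC had 3.11, 2.10, 2.13, 3.05 and 3.15, and ICC had 1.51, 1.65, 1.83, 1.62 and 1.46. The HCC groups overlapped, and all ICC lay below every HCC, by little in the case of the p53f/f tumor at 1.84. Fgfr3 was 2.14-fold lower in ICC than in p53LKO HCC, or -1.10 on the log2 scale (standard error 0.25, limma, adjusted p = 0.00511). This is close to the limit on the fold. With the mouse as a block the value was -0.99, with the lower row alone or the row as a block also -0.99, and without the HCC of mouse 3976 or of mouse 3975 it was -0.995 and -0.986, each short of a fold of 2. Quantile normalization gave -0.84, and scaling to the 18887 probes detected on every array gave -0.73 by their 75th percentile and -0.89 by their median, also short of it. Slide 1 alone gave -1.09 (limma, adjusted p = 0.375). The other Fgfr3 probe was 2.19-fold lower (standard error 0.37 on the log2 scale, limma, adjusted p = 0.029). The annotation places it at chr1:183022230-183022289, on another chromosome than the gene, so that what it measured is uncertain.

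Fgfr4 encodes the main FGF receptor of hepatocytes. Its brighter probe lies at chr13:55270033-55270092 of mm9. Levels were 3.02, 2.71, 2.51, 2.95 and 2.99 in p53f/f HCC. p53LKO HCC had 3.04, 2.86, 2.88, 3.19 and 1.99, and ICC had 3.13, 2.73, 2.93, 2.84 and 3.53. The groups overlapped, with the tumor of mouse 3975 as the lowest of all 15. The difference was -0.042 (standard error 0.23, limma, adjusted p = 0.907) between the HCC groups. It was 0.24 (standard error 0.25, limma, adjusted p = 0.453) between ICC and p53LKO HCC, on the arrays where Klb was lower. The second probe, at chr13:55269212-55269271, had 0.064 and 0.0016 for the same differences.

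Sprouty proteins are induced by ERK and inhibit the receptors' signal to RAS. Spry1, with its probe at chr3:37543403-37543462 of mm9, had 1.23, 0.34, 0.35, 1.07 and 1.64 in p53f/f HCC. It had 1.13, 1.74, 1.89, 1.63 and 1.54 in p53LKO HCC, and 0.83, 0.88, 1.64, 0.90 and 1.00 in ICC. The groups overlapped in both comparisons, with 4 of 5 ICC below all p53LKO HCC. The difference between the HCC groups was 0.66 (standard error 0.27, limma, adjusted p = 0.0868). Between ICC and p53LKO HCC it was -0.54 (standard error 0.21, limma, adjusted p = 0.0545). Neither was past the threshold. Scaled to the spike-in probes, which moved the median of all probes from -0.12 to 0.62, the HCC groups differed by 1.39 for Spry1 (limma, adjusted p = 0.00588), past both limits.

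The Spry2 probe, at chr14:106291845-106291904 of mm9, was dim. It had -3.24, -2.26, -2.71, -2.36 and -2.91 in p53f/f HCC, all well above background. In p53LKO HCC it had -5.34, -4.24, -4.56, -4.17 and -5.01, and only those of mice 3731 and 3733 were well above background. The highest of them was lower than the lowest p53f/f HCC. Spry2 was 3.91-fold lower in p53LKO HCC by the fit, or -1.97 on the log2 scale (standard error 0.28, limma, adjusted p = 0.000445, exact permutation p = 0.00794, the smallest possible). On slide 1 the p53f/f HCC lay in the upper row and the p53LKO HCC, of mice 3976 and 5283, in the lower row. Genotype and row thus coincide there, and Spry2 was not well above background in these p53LKO HCC. Within slide 1 the value was -2.15 and in the upper row alone -1.88, both past the thresholds. Within slide 2, which holds 1 p53f/f HCC, it was -1.67 (limma, adjusted p = 0.1). With background correction by normexp it was -0.64, less than a fold of 2. Among the 4462 dimmest genes by mean level, which include Spry2, 25.9% were lower in p53LKO HCC and 3.12% higher, and among the 4462 brightest 4.01% were lower. What part signal near background has in the value of Spry2 was not tested. ICC had -2.50, -3.07, -3.26, -1.65 and -4.23, of which only that of mouse 3977 was well above background, so that no fold change is given.

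Spry4, on chromosome 18, had -0.30, -2.01, -2.27, -0.44 and -0.43 in p53f/f HCC. It had -1.003, -0.76, -0.11, -1.30 and -1.04 in p53LKO HCC. Those of ICC were -2.28, -2.25, -1.52, -1.96 and -2.17. The p53f/f HCC comprised 3 tumors near the highest levels and 2, of mice 3715 and 3716, at the level of the ICC. The HCC groups differed by 0.25 (standard error 0.43, limma, adjusted p = 0.68). All ICC lay below all p53LKO HCC, by 2.29-fold on average, or -1.20 on the log2 scale (standard error 0.24, limma, adjusted p = 0.00296). It was -1.16 both within slide 2, where tumor type and row coincide, and within the lower row, past the thresholds in either. Slide 1 alone gave -1.40 (adjusted p = 0.198 from limma) and correction by normexp -0.68, each not past both limits. Scaling to the 18887 probes detected on every array gave -0.83 by their 75th percentile and -0.99 by their median, which also ended the call.

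Dusp6, whose product removes the activating phosphates of ERK, has its probe at chr10:98729985-98730044 of mm9. p53f/f HCC had 4.44, 4.41, 5.19, 4.68 and 4.59. p53LKO HCC had 4.01, 4.77, 4.38, 4.57 and 4.56, and ICC had 3.95, 4.02, 4.02, 4.03 and 3.74. Its levels spanned 1.45 over the 15 arrays, the narrowest range of the 10 genes. The ICC tumors were close together and mostly below the HCC, of which only that of mouse 3976 reached their level. The difference of ICC from p53LKO HCC was -0.50 (standard error 0.17, limma, adjusted p = 0.0318), a fold of 1.42 and short of the limit. Between the HCC groups it was -0.20 (standard error 0.20, limma, adjusted p = 0.465).

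The other genes of the pathway were taken from 7 lists. In p53LKO HCC against p53f/f HCC, none of 13 receptor adaptors and none of 13 RAS-ERK core genes was past the thresholds. Medians were 0.11 and 0.03 for these lists, against 0.06 over all genes. At an adjusted p under 0.05 without the limit on the fold, Ptpn11 of the adaptors was higher by 0.76, and the core genes included Mapk3, higher by 0.73, and Ksr1, lower at -0.79. These were named after their values were seen.

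FGF ligands had a median of -0.71 in p53LKO HCC, with 0 of 10 tested higher and 4 lower, against 5.19% and 10.8% of all genes. Fgf2, a mitogen of mesenchymal and endothelial cells, was lower, at -3.08 on the log2 scale (standard error 0.29, limma, adjusted p = 8.56e-05). Fgf9 had -2.97 (standard error 0.41, limma, adjusted p = 0.000389), with 5 of 5 p53f/f HCC but 2 of 5 p53LKO HCC well above background. Fgf8 at -1.31 and Fgf23, a hormone of phosphate balance, at -2.16 were the other two, named after their values were seen. Fgf2, Fgf8 and Fgf9 belong to the 4462 dimmest genes, of which 25.9% were lower. Endothelial markers had 1 of 5 lower and a median of -0.18, and fibroblast markers 0 of 7 past the thresholds and a median of 0.83. Neutrophil markers had 2 of 2 tested higher and a median of 1.97. Their part in the ligand values was not tested.

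Other ERK feedback and target genes went both ways in p53LKO HCC, with 4 of 18 higher and 3 lower and a median of 0.03. Over all genes 5.19% were higher and 10.8% lower. Ier3, an immediate early gene, was higher in all 5 p53LKO HCC than in any p53f/f HCC, by 2.46 on the log2 scale (standard error 0.35, limma, adjusted p = 0.000519). Dusp4, a nuclear phosphatase of ERK, was higher by 1.27 (standard error 0.28, limma, adjusted p = 0.0062). Myc at 1.26 and Ccnd1 at 1.23, which drive cell growth and the cell cycle, were the others that rose, and were named after their values were seen. Dusp7, a cytoplasmic phosphatase related to Dusp6, was lower with -2.20 (standard error 0.31, limma, adjusted p = 0.000459). The cytokine gene Lif had -1.26 (standard error 0.38, limma, adjusted p = 0.0274), with 2 of 5 p53LKO HCC well above background, and it too is one of the dimmest genes. Phlda1, named after its value was seen, had -1.01. Of the neutrophil markers 2 of 2 tested were higher in p53LKO HCC, with a median of 1.97, and their part in these values was not tested.

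In the heparan sulfate and co-receptor list 0 of 18 genes were higher and 2 lower in p53LKO HCC, with a median of -0.01. Over all genes 5.19% were higher and 10.8% lower. The 2 lower genes were Gpc6, a glypican, at -1.89 and Fgfbp3, which carries FGFs, at -1.21. Each was well above background on 3 of 5 p53LKO HCC and belongs to the 4462 dimmest genes, of which 25.9% were lower. Of 17 regulators and co-regulated genes of Fgf21, only Angptl4, a PPAR target, was past the thresholds. It was higher by 1.61 (standard error 0.55, limma, adjusted p = 0.0452). Of 10 bile acid genes of the FGF15 axis, Slc51b, a bile acid exporter, was higher by 2.21 and Slc10a1, the main bile acid importer of hepatocytes, was lower with -1.11. Medians were 0.29 and -0.02.

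In ICC against p53LKO HCC, 6 of 10 FGF ligands tested were higher and 1 lower, with a median of 1.15 against -0.17 over all genes. Of all genes tested, 13.2% were higher and 15.2% lower. Fgf9 was higher by 2.50 (standard error 0.70, limma, adjusted p = 0.0145) and Fgf2 by 2.25 (standard error 0.57, limma, adjusted p = 0.00905). Fgf9 was well above background on 2 of 5 p53LKO HCC and 4 of 5 ICC, and Fgf2 on 3 of 5 in each group. Fgf1 was lower with -2.19 (standard error 0.41, limma, adjusted p = 0.00184), and all 5 ICC lay below all p53LKO HCC. Fgf23, Fgf18, Fgf7 and Fgf8, named after their values were seen, also counted as higher, but Fgf7 was well above background on 0 of 5 ICC, so that no fold is given for it. Of the 4241 dimmest genes, which include Fgf2, Fgf7, Fgf8 and Fgf9, 21.4% were higher in ICC. Biliary markers had 4 of 7 higher and a median of 2.70, and stellate cell and fibroblast markers 4 of 7 higher and a median of 1.25. The part of these cells in the ligand values was not tested.

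The co-receptor and heparan sulfate list had 6 of 18 genes higher and 5 lower in ICC, with a median of -0.14. Over all genes 13.2% were higher and 15.2% lower. Flrt3, a membrane protein that binds FGF receptors, was higher by 4.87 (standard error 0.26, limma, adjusted p = 2.23e-06). Sulf1, an enzyme that removes sulfate groups from heparan sulfate at the cell surface, was higher by 4.83 (standard error 0.43, limma, adjusted p = 3.78e-05). Fgfrl1, a receptor without a kinase domain, was lower with -1.59 (standard error 0.27, limma, adjusted p = 0.00101), and Flrt1 with -2.02 (standard error 0.46, limma, adjusted p = 0.00565). In the same comparison 4 of 7 stellate cell and fibroblast markers and 4 of 7 biliary markers were higher, with medians of 1.25 and 2.70, and 5 of 7 hepatocyte markers were lower, with a median of -1.73. Their part in the values of this list was not tested.

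Adaptors and core genes of the pathway differed little between the tumor types, with medians of -0.17 and -0.18. Only Sos1 of 13 adaptors was lower, with 0 of 5 ICC well above background, so that no fold is given. Braf, a RAF kinase, was the only one of 13 core genes past the thresholds and was higher by 1.24 (standard error 0.27, limma, adjusted p = 0.00391). Of 18 other feedback and target genes 4 were higher and 0 lower, against 13.2% and 15.2% of all genes, with a median of 0.15. Etv4, an ETS factor that FGF signalling induces, was higher by 2.33 (standard error 0.24, limma, adjusted p = 7.52e-05). Epha4 was well above background on 0 of 5 p53LKO HCC and 4 of 5 ICC, and was at least 2.75-fold higher (limma, adjusted p = 0.00362). Dusp7 at 1.81 and Il17rd, a membrane inhibitor of FGF signalling, at 1.24 were the other two, named after their values were seen. The biliary, fibroblast and hepatocyte markers differed between the tumor types, with medians of 2.70, 1.25 and -1.73. Their part in the values of these 3 lists was not tested.

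Of 10 bile acid genes of the FGF15 axis, 6 were lower and 0 higher in ICC, with a median of -1.36. Over all genes 15.2% were lower and 13.2% higher. The 4 not past the thresholds included Cyp7a1, the rate-limiting enzyme of bile acid synthesis, at 1.70 (standard error 0.77, limma, adjusted p = 0.096), named after its value was seen. Slc51b had -4.75 (standard error 0.65, limma, adjusted p = 0.000357), and Nr0b2, which encodes the repressor SHP, had -2.14 (standard error 0.30, limma, adjusted p = 0.000397). Of the 17 regulators and co-regulated genes of Fgf21, 7 were lower and 0 higher, against the same 15.2% and 13.2%. Their median was -0.81. Ppara, the fasting regulator of Fgf21, had -2.48 (standard error 0.47, limma, adjusted p = 0.00199), and the stress hormone gene Gdf15 had -2.54 (standard error 0.43, limma, adjusted p = 0.00117). The hepatocyte markers, 5 of 7 lower with a median of -1.73, moved with both lists, and their part was not tested.

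**Figure D4:**
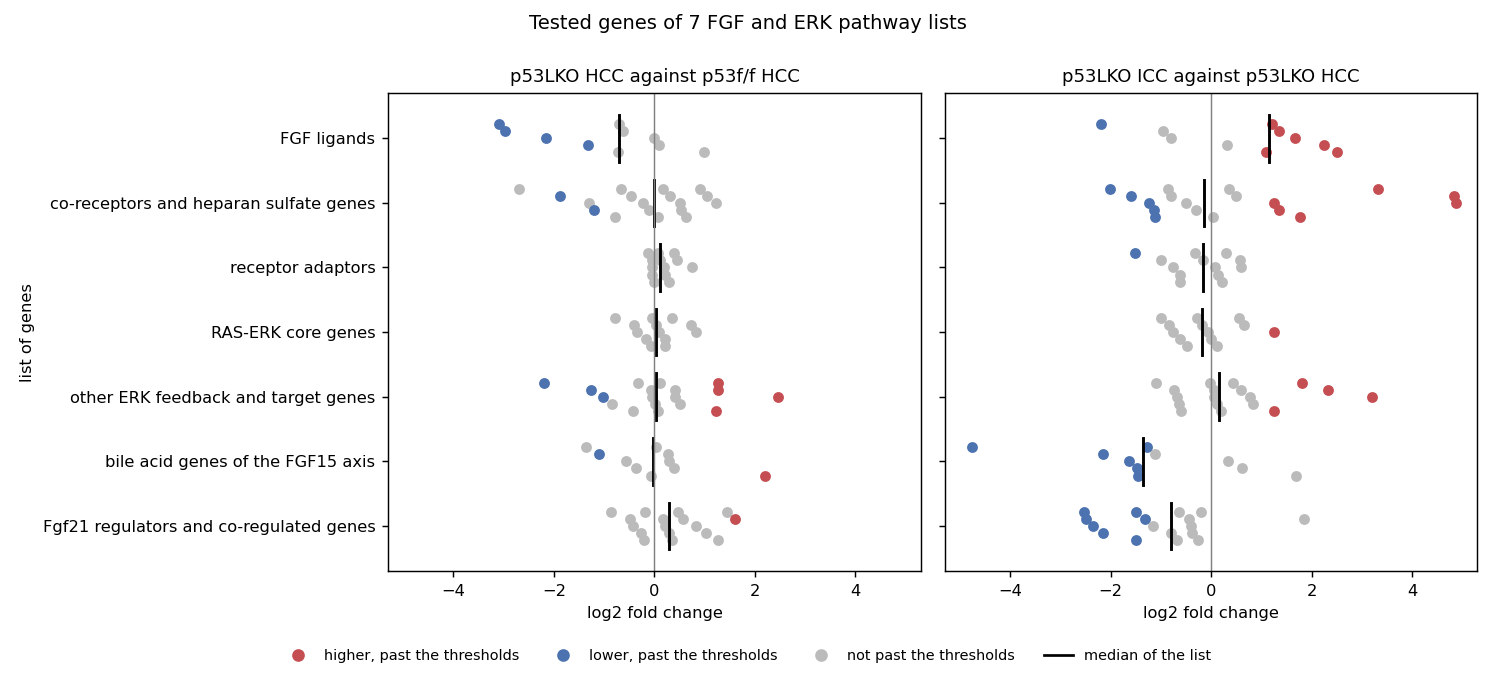
Log2 fold change (x axis) of the tested genes in 7 lists of FGF and ERK pathway genes (y axis) for p53LKO HCC against p53f/f HCC and for ICC against HCC of p53LKO mice. Each point is a gene, coloured by whether it was higher, lower or not past the thresholds, and bars are medians, which lie at -0.71 and 1.15 for the FGF ligands and at -0.02 and -1.36 for the bile acid genes.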

How the data were processed

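The authors extracted RNA with an RNA integrity number above 8.0, labelled it with a single dye and read the scanned slides with Agilent Feature Extraction 10.7.3.1, which is also in the submitters' processing notes. The deposited scanner output holds a processed intensity per spot, from which background was subtracted. A further table that the authors deposited has log2 values, which matched the log2 processed signal less the 75th percentile and centred per probe on the HCC or the p53LKO arrays, so it served only as an alternative for the HCC comparison. From the scanner output, log2 signals were averaged over spots, leaving out 127 to 224 outlier spots per array, and shifted by the 75th percentile of the non-control probes. Probes were tested if well above background on 3 or more arrays of either group, which left 36086 for the HCC comparison and 32670 for that of ICC. Each was fitted with limma 3.58.1 in R 4.3.3 on the 10 arrays of each comparison and Benjamini-Hochberg adjustment. Calls needed an adjusted p under 0.05 and a fold over 2. Among several probes of a gene, the one brightest on average over the 15 arrays stood for it. Single genes have a 2-sided exact permutation test.

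Members and lists were chosen with earlier results of these data known. From the lists the 2 largest rises and 2 largest falls past the thresholds were named, besides those said to be named later. Genes of the lists may be measured by probes that share sequence with relatives, which was not analysed here. On simulated data with 200 changed probes (log2 size 2), 74% of them were recovered in the HCC comparison and 78% in that of ICC, 0 in the wrong direction, and 12 and 6 unchanged probes also passed. The arrays have no read depth, and their number limits the precision. For the 4 mice with both tumor types, the deviations of the paired arrays from their group means correlated by -0.143 to 0.0655, against -0.263 to 0.284 for other pairs of mice, so that the pairing rests on the mouse numbers alone. Python 3.11.15 and matplotlib 3.10.9 drew the figures. Alternatives covered background correction, scaling, the filter, slide, row and mouse, other tests, and leaving out each tumor. No sample was left out. The value of 1 gene of the lists is not reported here.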

Additional observations from a re-analysis of the deposited data

Results flagged for a closer look

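Among the 30 groups of 5 tumors (10 genes in 3 groups), 4 held a tumor whose distance from its nearest neighbour took more than 0.71 of the range of its group. Chance gives about 1.5 such groups. Fgfr1 was 2.91 in the first tumor of p53f/f mouse 3717, while the other 4 p53f/f HCC lay at 1.35 to 1.78. Fgfr4 was 1.99 in the p53LKO HCC of mouse 3975, against 2.86 to 3.19 in the others. Spry1 was 1.64 in the ICC of mouse 3976, against 0.83 to 1.00. Dusp6 was 3.74 in the ICC of mouse 5283, against 3.95 to 4.03. All 4 probes were well above background on these arrays, and the tumors come from 4 different mice.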

How the results depend on the processing

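Counts of called genes and single fold changes were recomputed with other background correction, scaling, filters, batch terms, tests and samples. In the HCC comparison the count of lower genes, 1 as reported, was 0 with normexp, with detection required on every array of both groups, where Spry2 is not tested, and on slide 2 alone. The count of higher genes, 0 as reported, was 2 when arrays were scaled to the 7 spike-in probes, since Klb then had 1.30 and Spry1 1.39. That scaling moved the median of all probes from -0.12 to 0.62 and the share of higher among all called probes from 18.5% to 80.9%, and scaling to the 18887 probes detected on every array moved the median to -0.36 (75th percentile) or -0.30 (median). In ICC against HCC the count of lower genes, 3 as reported, was 1 with either scaling to those 18887 probes, where Fgfr3 and Spry4 no longer passed the fold limit. These scalings put the median of all probes at 0.21 and 0.04 in place of -0.16. The count was 0 on slide 1 alone, which holds 1 ICC, assumed there to vary like the HCC, and 5 with no limit on the fold, where Fgfr2 and Dusp6 join. The count of higher genes, 1 as reported, was 2 without a filter, where Spry2 is tested, and 0 with the row as a block, on slide 1 alone and with the methods' t-test, which gave Fgfr1 an adjusted p of 0.0601. With the mouse as replicate block, 1 gene was higher and 2 lower, Fgfr3 at -0.99 falling short of a fold of 2, and the block changed no other call.

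Leaving out each tumor gave 2 to 3 lower genes in ICC and left the other counts as reported. Signs turned only for fold changes that were not called. In the HCC comparison Fgfr4 had 0.063 with normexp, 0.69 with spike-in scaling, 0.15 on slide 1 alone, 0.011 as the mean of its probes and -0.14 to 0.16 with each tumor left out. Fgfr3 had -0.051 with quantile normalization, -0.057 with the 75th percentile of the detected probes and -0.39 on slide 2 alone. Fgf21 had 0.45 with spike-in scaling, 0.37 on slide 2 alone and -0.58 to 0.17 with each tumor left out. Spike-in scaling gave Fgfr2 0.48 and Dusp6 0.53. Spry4 had -0.38 on slide 2 alone and -0.044 to 0.45 with each tumor left out. In ICC against HCC, Fgf21 had -0.12 on slide 1 alone. The cause of these changes was not tested. Klb kept its call in ICC in 27 of 28 alternatives, Fgfr1 in 26, Spry4 in 25 and Fgfr3 in 20 of 29, and Spry2 kept its call in the HCC comparison in 27 of 29. The Spry2 probe was well above background on 2 of 5 p53LKO HCC arrays, and the number of arrays limits the precision.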
